A study of Mus musculus with 38 samples.

Results

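The 2 orexin receptor genes, Hcrtr1 and Hcrtr2, were followed in RNA from the adBNST of mice, a forebrain region named in full the anterodorsal bed nucleus of stria terminalis (BNST). They were picked by name, as 2 of the 25230 genes counted, and both were among the 16309 genes with enough reads to be tested. Hcrtr1 averaged 2.32 ± 0.952 counts per 1000000 counts (CPM, SD, n = 19) in females and 5.88 ± 2.59 CPM (SD, n = 19) in males. Hcrtr2 averaged 3.51 ± 1.26 CPM in females and 3.72 ± 1.24 CPM in males (SD, n = 19 each). The 95% intervals of the stress differences of both transcripts included 0 in each sex. The genes were picked with their levels in the 4 groups already known, so differences between those groups are given below as descriptions, with their errors and without p-values.

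Orexins, also called hypocretins, are neuropeptides cut from the product of the gene Hcrt in neurons of the lateral hypothalamus, whose axons reach this nucleus and many other regions. The receptor encoded by Hcrtr1 prefers orexin A, and the receptor encoded by Hcrtr2 binds orexin A and orexin B about equally well. Both are G protein-coupled receptors that act mainly through Gq and phospholipase C, raise intracellular calcium and excite neurons. They are known for roles in wakefulness, reward, feeding and responses to stress. The nucleus is a largely GABAergic part of the extended amygdala, sexually dimorphic in rodents and linked to anxiety-like behaviour.

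All mice were wild type, of a strain and age not given in the sources used here. There were 10 libraries of control females (FC), 9 of females exposed to chronic variable mild stress (FS), 10 of control males (MC) and 9 of stressed males (MS). The stress lasted 6 weeks and mixed stressors such as restraint, forced swim, isolation, cold and changes of light and bedding in random order. The submitters' stated model had sex, condition and their interaction. The labels do not say that each library came from a separate mouse, so every p-value measures the spread between libraries.

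The libraries held 9064136 to 84842828 counts each, with a median of 27323060. At those depths 1 count was worth 0.0116 CPM in MC1 and 0.115 CPM in MC3. Hcrtr1 had 13 to 484 counts in a library and Hcrtr2 had 23 to 385, so both were low but present in all 38 libraries. On the first principal component, which held 29.6% of the variance, 5 libraries stood apart (FC1, FC6, FS1, FS2 and MC3). Libraries numbered 1 to 5 also differed widely from those numbered 6 and above, and the labels do not say what the numbers mean. Some results, but not all, are given with and without the libraries that stood apart, or by number set. Gad1, Gad2 and Slc32a1, which GABA neurons need, averaged 665, 991 and 222 CPM, and all 10 markers of BNST and GABA neurons were tested. Those 10 markers summed on average to 2322 CPM in FC, 2380 in FS, 2403 in MC and 2401 in MS. The 12 striatal markers summed to 3882, 4248, 3292 and 2776 CPM in the same order. These levels therefore do not check that the dissections held adBNST alone. Crh, Prkcd and Esr1, known from subsets of neurons in this nucleus, fell to 4.72, 9.28 and 2.54 CPM in their lowest libraries. In such bulk tissue fewer cells of a type and less RNA per cell cannot be told apart.

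Hcrtr1 (ENSMUSG00000028778) lies on the minus strand at chr4:130130217-130139359 and Hcrtr2 (ENSMUSG00000032360) on the minus strand at chr9:76225880-76323856, both in GRCm38 with the GENCODE M21 annotation. Their exons joined over all annotated transcripts cover 2608 and 6162 bases. No other annotated gene overlaps Hcrtr1. An antisense gene, Gm27234, overlaps the body of Hcrtr2 but shares 0 exonic bases with it. Coding sequences of 1251 bases (Hcrtr1) and 1383 bases (Hcrtr2) were aligned over 1240 bases, of which 884, or 71.3%, were identical. Because reads of one receptor could in principle be counted for the other where the sequences are alike, the 90 coding bases in which they are most alike are shown here, from GENCODE M21, with the bases that differ in capitals:

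Hcrtr1: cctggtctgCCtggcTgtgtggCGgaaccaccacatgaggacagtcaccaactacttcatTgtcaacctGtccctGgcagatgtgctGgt

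Hcrtr2: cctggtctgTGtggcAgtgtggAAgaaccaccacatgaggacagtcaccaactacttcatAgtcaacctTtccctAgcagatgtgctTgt

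In this stretch 81 of 90 bases were identical and 9 differed. It lies at coding bases 195 to 284 of Hcrtr1, in exons 3 and 4 (chr4:130137206-130137434, minus strand), and at coding bases 219 to 308 of Hcrtr2, in exons 1 and 2 (chr9:76259746-76323286, minus strand), and crosses an intron in each gene. The longest run of bases that the transcripts of the 2 genes had in common was 36 bases, and 0 runs of 50 bases were shared.

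Hcrtr1 was low in nearly all female libraries and spread over a wide, higher range in males. In the FC libraries the lowest, median and highest levels were 1.53, 2.15 and 4.17 CPM, around a mean of 2.38 ± 0.942 CPM (SD, n = 10). The FS libraries ranged from 0.859 CPM in FS2 through a median of 2.09 to 4.55 CPM in FS8, with a mean of 2.24 ± 1.01 CPM (SD, n = 9). Male controls ran from 2.33 CPM in MC4 through a median of 5.42 to 12.6 CPM in MC9, with a mean of 6.07 ± 2.89 CPM (SD, n = 10). Stressed males ran from 2.81 CPM in MS5 through a median of 5.45 to 9.90 CPM in MS7, with a mean of 5.67 ± 2.36 CPM (SD, n = 9). The sexes overlapped between 2.33 and 4.55 CPM. Of the 19 male libraries, 19 lay above the female median and 11 above the highest female library, and 0 of the 19 female libraries lay above the male median.

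Within the sets of library numbers the overlap of Hcrtr1 between the sexes was smaller. In libraries numbered 1 to 5, FC1 to FC5 held 1.59, 1.53, 1.97, 2.10 and 2.36 CPM. The corresponding stressed females, FS1 to FS5, held 1.96, 0.859, 1.88, 2.34 and 2.09 CPM. In males, MC1 to MC5 held 4.12, 4.31, 6.98, 2.33 and 4.47 CPM. Of these 5 control males only MC4 was within the female range. MS1 to MS5 held 7.25, 5.51, 3.99, 3.38 and 2.81 CPM, and all 5 were above the highest of the 10 females in the set, 2.36 CPM.

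In libraries numbered 6 and above, FC6 to FC10 held 1.55, 4.17, 2.42, 2.20 and 3.96 CPM, and FS6 to FS9 held 1.47, 2.51, 4.55 and 2.52 CPM. MC6 to MC10 held 5.18, 6.24, 8.82, 12.6 and 5.66 CPM. MS6 to MS9 held 5.45, 9.90, 8.24 and 4.51 CPM. Only MS9, at 4.51 CPM, was below the highest female of the set, FS8, at 4.55 CPM. The mean in males was 2.42 times that in females in the lower numbers and 2.63 times in the higher numbers. Without the 5 libraries that stood apart it was 2.29 times (5.82 ± 2.65 CPM, SD, n = 18, against 2.54 ± 0.934 CPM, SD, n = 15).

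**Figure D1:**
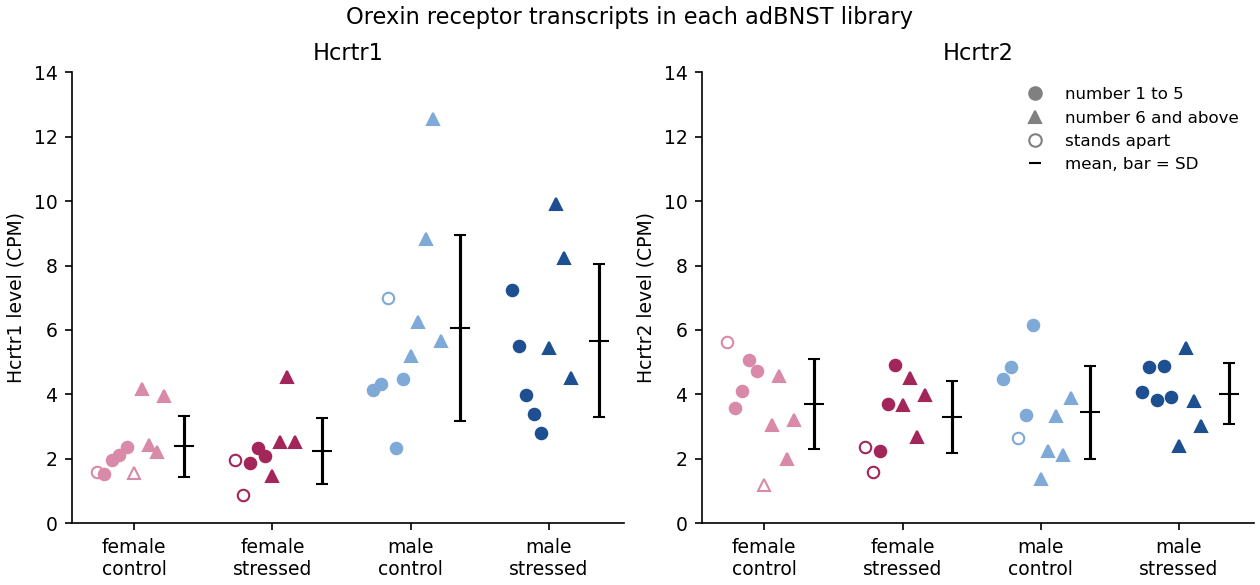
Level of Hcrtr1 (left) and Hcrtr2 (right) in each library, in CPM on the y axis, by group on the x axis; circles are libraries numbered 1 to 5, triangles 6 and above, open symbols the 5 libraries that stand apart, and the black mark and bar are the group mean and SD. For Hcrtr1 11 of 19 male libraries lie above the highest female library at 4.55 CPM, whereas the 4 groups overlap throughout for Hcrtr2.

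In the fit of all 38 libraries the sex difference of Hcrtr1 was nearly the same size in control and in stressed mice. Male controls exceeded female controls by 1.34 ± 0.26 on the log2 scale (SE, 95% interval 0.80 to 1.87), a 2.53-fold difference. Stressed males exceeded stressed females by 1.33 ± 0.28 (SE, 95% interval 0.77 to 1.89), a 2.51-fold difference. In controls 11 genes (0.0674% of those tested) passed an adjusted p under 0.05, 8 higher in males (0.0491%) and 3 lower (0.0184%). In stressed mice 14 (0.0858%) passed, 13 higher (0.0797%) and 1 lower (0.00613%). Hcrtr1 is in both lists, but since it was picked from these same libraries its place there is no test, and nothing is read from it.

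The Hcrtr1 sex difference kept its direction in subsets of the libraries. It was 1.20 ± 0.30 in controls and 1.32 ± 0.30 in stressed mice (SE) in libraries numbered 1 to 5, and 1.42 ± 0.33 and 1.36 ± 0.37 in those numbered 6 and above. Without the libraries that stood apart it was 1.19 ± 0.28 and 1.21 ± 0.29. Leaving out 1 library at a time gave 1.15 (without MC9) to 1.46 (without FC7) in controls. In stressed mice it gave 1.20 (without MS7) to 1.54 (without FS8). All these values come from the libraries in which Hcrtr1 was picked, so they are descriptions and no independent check of its direction.

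Preoptic, hypothalamic and choroid plexus markers were measured beside this difference. Of 8 preoptic and hypothalamic markers 7 were tested, of which 4 were above and 3 below 0 in each sex comparison, with medians of 0.01 in controls and 0.27 in stressed mice. Of the 7, 1, the neuropeptide gene Gal, was higher in stressed males (1.08 ± 0.23, SE, edgeR adjusted p = 0.0433). In controls Gal differed by 0.97 ± 0.22 (SE, edgeR adjusted p = 0.068), and Avp, the vasopressin gene, by 1.07 ± 0.30 (adjusted p = 0.344), whereas Calcr and Oxt, for the calcitonin receptor and oxytocin, differed by -0.28 and -0.26. The summed level of the 8 markers was 37.96 to 90.26 CPM in FC, 49.0 to 77.4 in FS, 45.6 to 89.1 in MC and 49.7 to 88.9 in MS, and none of the 8 was at 0 in all libraries. With the preoptic and hypothalamic score of each library as a covariate, an alternative added after the data were seen, the Hcrtr1 difference was 0.99 ± 0.20 in controls and 0.95 ± 0.20 in stressed mice (SE). That score includes Gal and Avp, with the sex differences given above. What made the Hcrtr1 difference smaller was not tested. Choroid plexus markers, 2 of 6 of which were higher in stressed males, summed to 27.8 to 59.2 CPM in the other groups and to 31.0 to 3206 CPM in MS, with the high value in MS5. Hcrtr1 in MS5 was the lowest of the MS libraries.

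The stress differences of Hcrtr1 were smaller than their standard errors in both sexes. Stressed minus control was -0.09 ± 0.27 in females (SE, 95% interval -0.64 to 0.47) and -0.09 ± 0.26 in males (SE, 95% interval -0.63 to 0.44). The male effect minus the female effect was -0.01 ± 0.38 (SE, 95% interval -0.79 to 0.77). All 9 stressed males and 6 of 9 stressed females lay within the range of their controls. By edgeR's quasi-likelihood test 0 of 16309 genes (0%) passed for stress in females, in males, for the interaction or for stress averaged over the sexes, with 307, 652, 731 and 238 genes at an unadjusted p under 0.05. DESeq2 and limma voom also gave 0 genes in each of these comparisons. Leaving out 1 library moved the Hcrtr1 stress difference between -0.28 (without FS8) and 0.04 (without FC7) in females and between -0.23 (without MS7) and 0.09 (without MC9) in males.

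The levels of Hcrtr2 overlapped across all 4 groups. The FC libraries ran from 1.20 through a median of 3.84 to 5.64 CPM, with a mean of 3.71 ± 1.39 CPM (SD, n = 10). In FS the range was 1.59 to 4.91 CPM, with a median of 3.66 and a mean of 3.29 ± 1.13 CPM (SD, n = 9). MC ranged from 1.38 through 3.34 to 6.16 CPM, with a mean of 3.44 ± 1.45 CPM (SD, n = 10). The MS libraries were the least spread, from 2.41 through 3.92 to 5.43 CPM, with a mean of 4.02 ± 0.943 CPM (SD, n = 9). The ranges overlapped almost completely, and 1 of 19 male libraries was above the highest female library. Without the libraries that stood apart the means were 3.78 CPM in FC, 3.67 in FS, 3.53 in MC and 4.02 in MS.

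By library number, FC1 to FC5 held 5.64, 3.58, 4.10, 5.06 and 4.73 CPM of Hcrtr2, whereas FC6 to FC10 held 1.20, 3.05, 4.56, 1.98 and 3.21 CPM. FS1 to FS5 held 2.35, 1.59, 2.24, 3.70 and 4.91 CPM, and FS6 to FS9 held 3.66, 4.51, 2.69 and 3.99 CPM. Control females were on average higher in the lower numbers, and stressed females were on average lower there. MC1 to MC5 held 4.47, 4.86, 2.63, 3.36 and 6.16 CPM, against 1.38, 2.25, 3.32, 2.10 and 3.87 CPM in MC6 to MC10. MS1 to MS5 held 4.09, 4.84, 3.81, 4.89 and 3.92 CPM, against 2.41, 5.43, 3.80 and 3.02 CPM in MS6 to MS9. In MS the lower numbers covered a narrow range within that of the higher numbers.

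The 95% intervals of all group differences of Hcrtr2 included 0. Stressed minus control was -0.16 ± 0.24 in females (SE, 95% interval -0.65 to 0.34) and 0.22 ± 0.24 in males (SE, 95% interval -0.27 to 0.71). The male effect minus the female effect was 0.37 ± 0.34 (SE, 95% interval -0.32 to 1.07). Male minus female was -0.10 ± 0.24 in controls (SE, 95% interval -0.58 to 0.38) and 0.27 ± 0.25 in stressed mice (SE, 95% interval -0.23 to 0.78). The estimated stress difference had opposite signs in the lower and the higher library numbers. In females it was -0.61 in libraries numbered 1 to 5 and 0.39 in those numbered 6 and above, and averaged over the sexes it was -0.31 and 0.45. Male minus female in stressed mice was 0.52 in the lower and -0.02 in the higher numbers. Each number set held 4 or 5 libraries of a group, and whether these estimates differ between the sets was not tested. Of the libraries that stood apart, FC1, FS1, FS2 and MC3 are in the lower numbers and FC6 is in the higher.

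**Figure D2:**
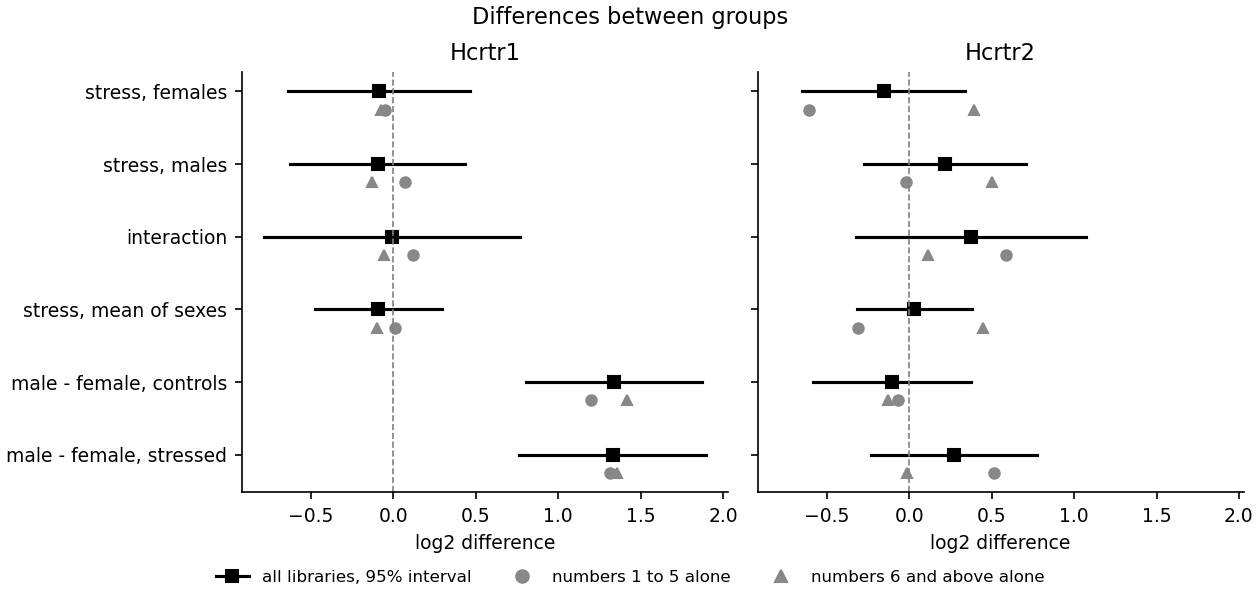
Differences of Hcrtr1 (left) and Hcrtr2 (right) between groups on the log2 scale (x axis), 1 comparison a row; squares with bars are the estimates from all libraries with 95% intervals, circles and triangles the estimates from libraries numbered 1 to 5 and 6 and above alone. Both sex differences of Hcrtr1 lie near 1.3 in each set. The estimated stress differences of Hcrtr2 have opposite signs in the sets, a change that was not tested.

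The split by library number took no part in how the receptors were picked, so it was tested. Hcrtr1 was higher in libraries numbered 6 and above, by 0.65 ± 0.16 on the log2 scale (SE, edgeR adjusted p = 0.001022), a 1.57-fold difference. Its mean was 2.86 against 1.91 CPM in FC, 2.76 against 1.83 in FS, 7.69 against 4.45 in MC and 7.02 against 4.59 in MS, so it was in the same direction in all 4 groups. For Hcrtr2 the difference was -0.37 ± 0.16 (SE, edgeR adjusted p = 0.06156), with means of 2.80 against 4.62 CPM in FC, 3.71 against 2.96 in FS, 2.59 against 4.30 in MC and 3.66 against 4.31 in MS. It was lower in the higher numbers in 3 of 4 groups by these means, and without the libraries that stood apart it passed (-0.42 ± 0.14, SE, edgeR adjusted p = 0.01317). Of all genes tested 3780 (23.2%) were higher and 3629 (22.3%) lower in the higher numbers, 45.4% in all, so passing this test sets neither receptor apart. Lower in the higher numbers were all 12 striatal markers (median -0.79), all 8 oligodendrocyte markers (median -0.92) and 4 of 5 cholinergic markers (median -0.63). Higher there were all 6 ependymal markers (median 1.36), 5 of 8 septal markers (median 0.62), 3 of 7 tested preoptic and hypothalamic markers and 3 of 10 markers of BNST and GABA neurons. The part of these tissue markers in the receptor differences was not tested.

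Levels of different genes were compared only per length, as transcripts per 1000000 transcripts (TPM) from the joined exon lengths. Hcrtr1 averaged 7.26 ± 4.75 TPM and Hcrtr2 2.71 ± 1.00 TPM (SD, n = 38). With the longest annotated transcript as the length these means were 5.87 and 3.36 TPM, so over all libraries the choice of gene model moved the distance between the receptors but not their order. In females the longest transcripts gave nearly equal means, 3.27 TPM for Hcrtr1 and 3.21 TPM for Hcrtr2. In females numbered 1 to 5 they reversed the order, with 2.57 and 3.38 TPM against 3.19 and 2.74 TPM by joined exons. By group Hcrtr1 averaged 4.20 TPM in FC, 3.89 in FS, 10.6 in MC and 10.4 in MS. Hcrtr2 averaged 2.74, 2.45, 2.57 and 3.12 TPM in the same order of groups. By joined exon lengths, on which its size depends, the ratio of Hcrtr1 to Hcrtr2 was 1.80 ± 1.01 in FC, 1.72 ± 0.929 in FS, 5.32 ± 4.00 in MC and 3.44 ± 1.40 in MS (SD, n = 10, 9, 10 and 9). Over female libraries the ratio ran from 0.668 in FC1 to 4.00 in FS8, and over male libraries from 1.64 in MS4 to 14.1 in MC9.

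Set among a chosen list of 16 other peptide receptors, whose likeness in sequence was not measured, both were in the lower part of the order. Gpr83, a receptor abundant in the forebrain, was first at 102 TPM, and the neuropeptide Y receptor gene Npy2r second at 58.4 TPM. Hcrtr1 was 11th of 18 and Hcrtr2 was 14th. This order pools the sexes, in which Hcrtr1 averaged 4.05 TPM (females) and 10.5 TPM (males). Next to Hcrtr1 stood Npy5r (9.53 TPM), another neuropeptide Y receptor, and Cckar (5.43 TPM), a cholecystokinin receptor, and next to Hcrtr2 stood the galanin receptor Galr1 (3.99 TPM) and the prokineticin receptor Prokr2 (2.16 TPM). The mean of Hcrtr1 lay within 1 SD of both its neighbours, and that of Hcrtr2 within 1 SD of Prokr2, while Galr1 was above Hcrtr2 by less than its own SD of 1.89 TPM but more than that of Hcrtr2. With the longest transcripts as lengths Hcrtr2 (3.36 TPM) lay above Galr1 (3.01 TPM), so its place depends on the gene model. Of the 16039 tested genes with a length, 26.8% lay below Hcrtr1 and 15.0% below Hcrtr2.

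**Figure D3:**
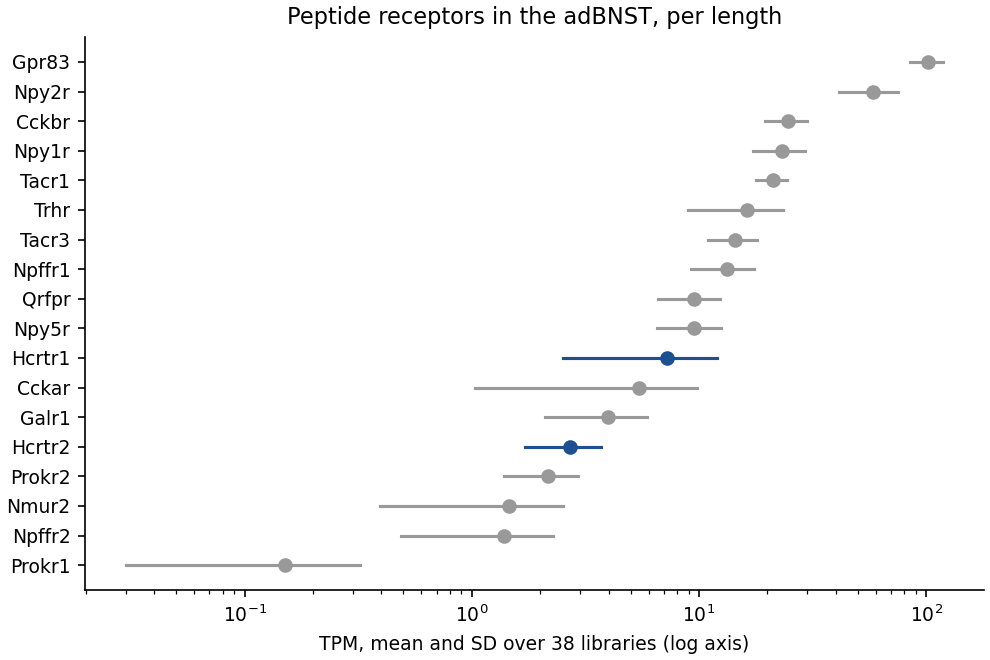
Level of 18 peptide receptor genes per length, in TPM on a log x axis; points are means and bars SDs over 38 libraries, with the orexin receptors in blue, and the bar of Prokr1 is cut off at its lower end because its SD exceeds its mean. Hcrtr1 at 7.26 TPM is 11th and Hcrtr2 at 2.71 TPM is 14th.

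The ligand gene Hcrt (ENSMUSG00000045471, chr11:100761069-100762931 on the minus strand) was close to absent, in tissue that orexin axons reach but where orexin cell bodies are not known. It had 75 counts in all 38 libraries together and 0 to 16 in any library, too few to be tested. The highest were MC6 with 16 counts, MC9 with 8 and FC10 with 7. Pmch, the melanin-concentrating hormone gene of neighbouring cells in the lateral hypothalamus, had 103 counts in all. Qrfp, which encodes a related hypothalamic peptide, averaged 0.293 CPM and passed no group comparison (-0.24 ± 0.38 in MC minus FC and 0.17 ± 0.40 in MS minus FS, SE).

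Beyond the ligands, the pathway lists took in the other peptide receptors, G proteins, phospholipase and calcium release, the endocannabinoid branch, channels and exchangers, and desensitisation. With the ligand list they held 69 genes, of which 67 were tested. In each sex comparison 1 gene passed, the same one, beside 0.0674% of all genes in controls and 0.0858% in stressed mice, and in all 4 stress comparisons 0 passed, as for all genes. The lists were written with earlier results of these data known, so the share that passed is a description. The median difference over the 67 genes was -0.02 in MC minus FC and 0.04 in MS minus FS, against 0.00 and -0.01 over all genes tested. For stress it was -0.01 in females and 0.01 in males, against 0.01 and -0.02.

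The gene that passed was Cckar, the cholecystokinin A receptor, on chromosome 5. Its mean was 2.21 ± 0.912 CPM in FC (SD, n = 10), 1.62 ± 0.384 in FS (SD, n = 9), 7.14 ± 3.43 in MC (SD, n = 10) and 6.25 ± 3.37 in MS (SD, n = 9). It was higher in males by 1.69 ± 0.26 in controls and by 1.94 ± 0.28 in stressed mice (SE, edgeR adjusted p = 0.000273 and 9.287e-05). Because the list holding Cckar was written with earlier results known, its passing is no independent finding about the pathway. Its stress difference was -0.44 ± 0.28 in females and -0.19 ± 0.26 in males (SE), not past the threshold. The other cholecystokinin receptor, Cckbr, differed by -0.04 ± 0.13 and -0.11 ± 0.14 between the sexes. The list of 15 tested receptors had medians of -0.01 and 0.16 in the sex comparisons.

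None of the 9 G protein genes passed a sex or stress comparison. Gnas, the stimulatory G protein, at 1359 CPM, differed by 0.07 ± 0.09 between the sexes in controls and 0.02 ± 0.10 in stressed mice (SE). Gnao1, an inhibitory-class G protein abundant in brain, at 809.7 CPM, differed by -0.15 ± 0.11 and -0.19 ± 0.11. Gnaq, the Gq subunit through which the orexin receptors mainly signal, differed by 0.03 ± 0.09 and 0.10 ± 0.10.

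Of 12 genes for phospholipases, calcium release and protein kinase C, 0 passed. Prkcb, a protein kinase C, averaged 998.6 CPM and differed by -0.05 ± 0.22 and -0.24 ± 0.23 between the sexes. Itpr1, the main neuronal channel for release of calcium from stores, averaged 445.9 CPM and differed by -0.21 ± 0.19 and -0.20 ± 0.20. In the endocannabinoid branch, through which orexin receptors can act on presynaptic terminals, 0 of 5 passed. Cnr1, the cannabinoid receptor, differed by -0.05 ± 0.15 and 0.09 ± 0.16, and Mgll, which breaks down the lipid messenger, by -0.15 ± 0.14 and -0.40 ± 0.15.

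Of 16 channels and exchangers 0 passed. Kcnq3, a subunit of the M-current channel, differed by -0.05 ± 0.19 and 0.07 ± 0.20 between the sexes, and Slc8a1, a sodium-calcium exchanger, by -0.11 ± 0.19 and 0.33 ± 0.21. Of 9 genes for desensitisation 0 passed, and the arrestin gene Arrb1 differed by -0.12 ± 0.07 and -0.09 ± 0.07 and the G protein regulator Rgs4 by -0.08 ± 0.21 and -0.20 ± 0.23. With 0.0674% and 0.0858% of all genes passing the sex comparisons and 0% the stress comparisons, 0 in any of these lists is no result about the pathway. All errors in these lists are SEs from the fit of 38 libraries.

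The pathway varied far more with library number. Of its 67 tested genes 17 were higher and 25 lower in the higher numbers, a share that is read beside 45.4% of all genes. The lower ones included Prkcb (-0.75), Rgs4 (-0.73), Kcnq3 (-0.59), Kcnq5 (-0.51) and Itpr1 (-0.50). Among the higher ones were Nmur2 (1.16), a neuromedin U receptor, Trpc4 (0.62), a receptor-operated cation channel also listed as a septal marker, Npffr1 (0.45), a receptor for RFamide peptides, Cckbr (0.43), Kcnj9 (0.40), a G protein-gated potassium channel, and Grk6 (0.34), a receptor kinase. The values in parentheses are log2 differences.

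The genes that passed the sex comparisons lay on the sex chromosomes and on autosomes. Hcrtr1 is counted among them, but as said above its place there is no test, and nothing is read from it. Of the 11 in controls 5 were on Y, 4 on X and 2, Cckar and Hcrtr1, on autosomes. Of the 14 in stressed mice 5 were on Y, 2 on X and 7 on autosomes. The autosomal genes were Cckar, Hcrtr1, Gal, Ppp1r3e, Greb1 and the choroid plexus genes Ttr and Kcnj13. The count of 9 genes common to both comparisons included Hcrtr1, Cckar and the X-linked gene Sytl4, which encodes a protein of secretory granules. Sytl4 was higher in males by 1.49 ± 0.23 and 1.38 ± 0.24 (SE, edgeR adjusted p = 0.000273 and 0.003218).

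To see which transcripts moved with the receptors from library to library, each gene's log2 CPM was taken as a deviation from the mean of its group and number set, over the 33 libraries that did not stand apart. Among 13731 genes with a mean of at least 1 CPM the most like Hcrtr1 were Rspo1 (Pearson r = 0.908), Pnoc (0.865), Cck (0.863), Sytl4 (0.828) and Rprm (0.820), with the 99th percentile of genes at 0.626. Rspo1 encodes a secreted enhancer of Wnt signalling, Pnoc and Cck the precursors of the neuropeptides nociceptin and cholecystokinin, and Rprm a cell cycle inhibitor. These coefficients describe the libraries and carry no p, since the libraries share tissue composition and depth. Over all 38 libraries they were 0.496, 0.584, 0.498, 0.510 and 0.486, lower once the libraries that stood apart were included. Within the number sets that of Rspo1 was 0.862 in the lower and 0.934 in the higher numbers.

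Of these 5 genes Sytl4 alone passed a sex comparison. Rspo1 differed by 0.22 ± 0.24 in controls and -0.03 ± 0.25 in stressed mice (SE), Pnoc by 0.41 ± 0.24 and 0.30 ± 0.25, and Rprm by 0.24 ± 0.16 and 0.12 ± 0.17. Cck differed by 0.75 ± 0.26 and 0.72 ± 0.27. The level of Hcrtr1 divided by that of Rspo1 in the same library was 0.465 ± 0.161 in FC, 0.380 ± 0.158 in FS, 0.881 ± 0.158 in MC and 0.885 ± 0.148 in MS (SD, n = 10, 9, 10 and 9). In this ratio 17 of 19 male libraries lay above the highest female library, against 11 of 19 for Hcrtr1 itself. Divided by Pnoc the count was 18 of 19, by Rprm 15 of 19, by Cck 4 of 19 and by Sytl4 0 of 19. These genes were picked for following Hcrtr1 within the groups of these same libraries. A narrower spread of the ratio within groups is therefore partly built in, and the counts are descriptions only.

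**Figure D4:**
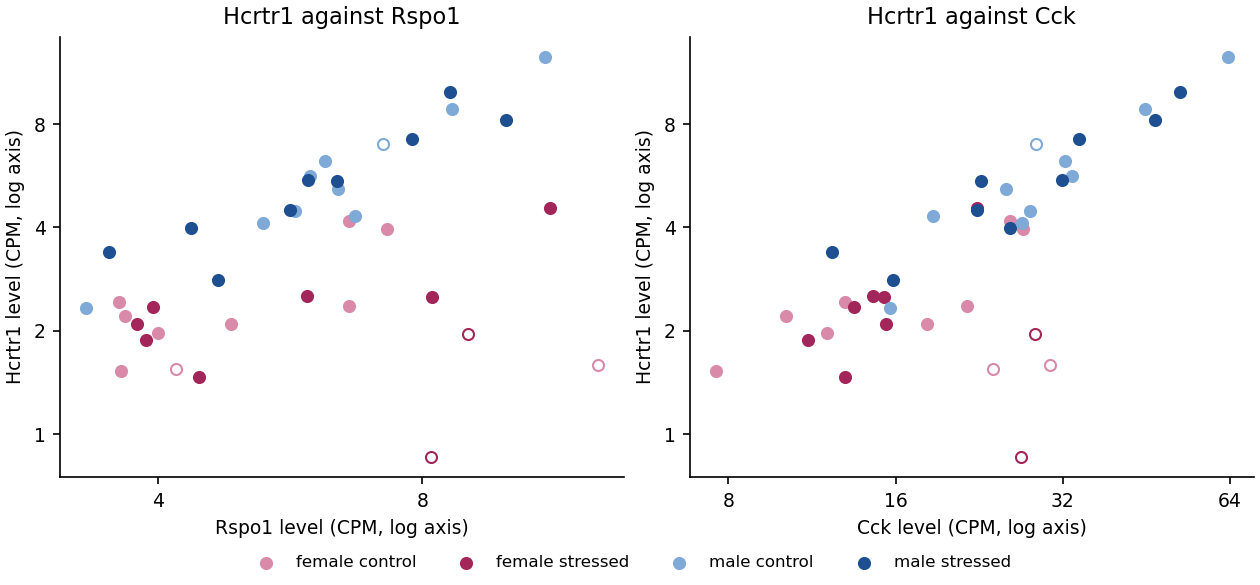
Hcrtr1 level (y axis, CPM, log axis) against the level of Rspo1 (left) and Cck (right) in the same library (x axes, CPM, log axes); each point is a library, and open points are the 5 that stand apart. Male libraries lie above female libraries of the same Rspo1 level, with 17 of 19 male ratios above the highest female ratio, whereas for Cck 4 of 19 do. Both genes were picked for their likeness to Hcrtr1 in these libraries, so the counts are descriptions only.

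The genes most like Hcrtr2 were others. They were Brox (r = 0.799), Slc35g2 (0.797), Cdk14 (0.784), Sphkap (0.781) and C1ql3 (0.767), with the 99th percentile at 0.634. Brox encodes an endosomal and nuclear membrane protein, Cdk14 a cyclin-dependent kinase, Sphkap an anchoring protein for protein kinase A and C1ql3 a secreted synaptic protein. None of the 5 passed a sex comparison. Between the receptors themselves r was 0.251 (permutation p = 0.161) and Spearman's rho 0.284 (permutation p = 0.110) over the 33 libraries. Without the 2 libraries farthest from the median r was 0.263 (permutation p = 0.153). Within libraries numbered 1 to 5 r was 0.445 (permutation p = 0.0836) and within those numbered 6 and above 0.160 (permutation p = 0.536). Spearman's rho in the same sets was 0.509 (permutation p = 0.047) and 0.181 (permutation p = 0.486), so in the lower numbers rho was under 0.05 in its p and r was not. The permutations did not allow for the group and number set means taken out, so these p-values are too small.

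Scores of 14 lists of tissue and cell type markers were compared with both receptors in the same way, 28 correlations in all, of which 13 passed a Benjamini-Hochberg adjusted permutation p of 0.05 for r. Here too the p-values are too small, because the permutations did not allow for the means taken out. The weakest of the 13 might not pass a test that did. The closest was that of Hcrtr1 with the preoptic and hypothalamic score, with r = 0.823 and rho = 0.850 (permutation p = 1e-05 for both, the smallest the permutations can give, adjusted p = 0.00028). It was 0.844 without the 2 farthest libraries (adjusted permutation p = 0.00028), 0.872 in the lower numbers (adjusted permutation p = 0.00056) and 0.797 in the higher numbers (adjusted permutation p = 0.007). Hcrtr1 also rose with the scores of cortex (r = 0.666, rho = 0.585), thalamus (0.553, 0.580), septum (0.552, 0.482), BNST and GABA neurons (0.475, 0.526) and lateral hypothalamus peptide neurons (0.440, 0.346), and fell as the striatal score rose (-0.504, -0.457). Adjusted permutation p-values of these r were 0.00056, 0.00448, 0.00448, 0.01414, 0.02469 and 0.009084. For rho the adjusted permutation p-values were 0.00325, 0.00325, 0.0152, 0.00716, 0.0959 and 0.0206 in the same order. The relation with lateral hypothalamus peptide neurons, which did not pass by rho, rested on the 2 farthest libraries, without which r was 0.290 (adjusted permutation p = 0.229). Members of the BNST and GABA list differed widely in r with Hcrtr1, from 0.77 for Lhx6 to -0.35 for Nts, with Gad1 at -0.011 and Gad2 at 0.011. Preoptic and hypothalamic members ran from 0.08 for Calcr to 0.70 for Otp. Of the 6 markers of lateral hypothalamus peptide neurons 4 entered the score, and Hcrt and Pmch did not. Those 4 were Cartpt (0.62), Lhx9 (0.39), Qrfp (0.04) and Nptx2 (-0.07), so that score does not measure orexin neurons themselves.

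Hcrtr2 was related most closely to the cortex score (r = 0.646, rho = 0.634, adjusted permutation p = 0.00056 and 0.00126) and to BNST and GABA neurons (r = 0.591, rho = 0.539, adjusted permutation p = 0.00147 and 0.00658). The cortex score held 4 of 5 markers, with r from 0.25 for Slc17a7 to 0.60 for Neurod6. These markers were low, with summed group means of 11.3 CPM in FS to 22.9 CPM in MS. Hcrtr2 fell as the striatal score rose (r = -0.533, rho = -0.578, adjusted permutation p = 0.00568 and 0.00325). Its r with the septal score was 0.505, with the preoptic and hypothalamic score 0.432 and with the thalamic score 0.413 (adjusted permutation p = 0.009084, 0.02842 and 0.03814). The corresponding rho were 0.496, 0.365 and 0.456 (adjusted permutation p = 0.0127, 0.0819 and 0.0206), so the relation with the preoptic and hypothalamic score did not pass by rho. Whether Hcrtr1 and Hcrtr2 differ in these coefficients was not tested. Scores of oligodendrocytes, astrocytes, microglia, endothelium, ependyma, choroid plexus and cholinergic neurons passed for neither receptor over the 33 libraries. Over all 38 libraries Hcrtr2 fell as the oligodendrocyte score rose (r = -0.608, rho = -0.474, adjusted permutation p = 0.00084 and 0.00924) and Hcrtr1 as the cholinergic score rose (r = -0.425, rho = -0.384, adjusted permutation p = 0.0182 and 0.0366). Without the 2 farthest libraries Hcrtr2 rose with the choroid plexus score (r = 0.412, rho = 0.523, adjusted permutation p = 0.0483 and 0.0147). Within the number sets all 13 relations kept their direction, and 4 passed in the lower and 2 in the higher numbers, where 16 and 17 libraries entered.

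**Figure D5:**
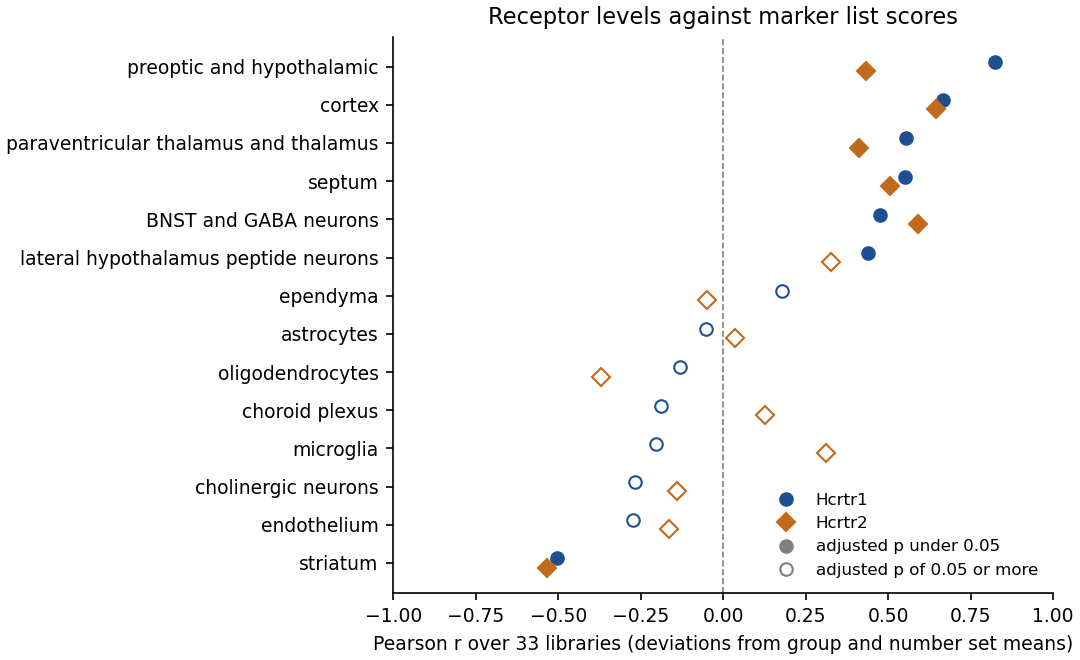
Pearson r of each receptor with each marker list score over 33 libraries (x axis), 1 list a row; blue circles are Hcrtr1, orange diamonds Hcrtr2, and filled symbols passed an adjusted permutation p of 0.05. The highest r, at 0.823, is that of Hcrtr1 with the preoptic and hypothalamic score, and both receptors have a negative r with the striatal score, at -0.504 and -0.533.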

How the data were processed

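RNA was measured in 38 adBNST microdissections. RNA was purified on micro columns, and stranded poly-A libraries were made at a genome centre, per the labels' protocols. The deposited table holds unscaled read counts by gene symbol, with 1 column for each library. The tools named per the submitters' processing notes are STAR, featureCounts and DESeq2, on mm10. Versions, annotation, strand setting and filters: not given in the sources used here. No column belonged to another series.

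Counts were analysed in R 4.3.3 with edgeR 4.0.16. Genes were filtered with filterByExpr by group (8921 of 25230 left out), libraries were scaled by TMM, and 1 mean per group was fitted with robust quasi-likelihood over all libraries (common biological coefficient of variation 0.266). Adjusted p-values are Benjamini-Hochberg over 16309 genes, with a threshold of 0.05. CPM are counts per 1000000 of TMM-scaled library size, log2 CPM have a prior count of 2, and TPM use GENCODE M21 exon lengths, matched for 24415 symbols. List scores are means of centred log2 CPM, and correlations used 100000 permutations (scipy 1.17.1). Deviations were shuffled over all libraries of a comparison, without allowing for the group and number set means removed. A score needs more than 1 tested member, so the blood list, with only Alas2 tested (1.67 CPM), was left out. The fit was tested on simulated data.

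Alternatives were DESeq2 1.42.0, limma voom (limma 3.58.1), DESeq2 size factors, no filter, a replicate block, a term for library number, each number set alone, leaving out libraries, and a tissue covariate added later. The members and lists were chosen with earlier results of these data known. Named genes were both receptors, Hcrt and Qrfp, up to 4 passing members of each pathway list by smallest p or else the 2 of highest mean CPM, and the 5 genes most like each receptor. Gnaq, Cckbr, Pmch, Gal, Avp, Calcr, Oxt, the receptors first in level or next to the orexin receptors in level, and the autosomal genes passing a sex comparison were named after their values were seen.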

Additional observations from a re-analysis of the deposited data

Results flagged for a closer look

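Levels of Hcrtr1, Hcrtr2, Hcrt and Qrfp were searched for single libraries far from the others of their group, by the gap to the nearest library as a share of the group's range. Of 16 sets of values 3 held such a library. Chance marks about 1 in 20 sets of continuous values, a rate that need not hold for Hcrt, whose counts are few and mostly near 0. FS8 had 4.55 CPM of Hcrtr1, above all other stressed females. Without it Hcrtr1 in stressed minus control females was -0.28 on the log2 scale, against -0.09 with it, and the sex difference in stressed mice was 1.54 against 1.33. MC6 had 0.596 CPM of Hcrt, from 16 counts, and MS5 had 0.134 CPM of Hcrt, from 3 counts. MS5 is also the library with choroid plexus transcripts. The part of dissection in any of the 3 was not tested.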

How the results depend on the processing

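The sex difference of Hcrtr1 was above 0 in all 10 alternatives beside leaving out 1 library, between 0.99 and 1.42 in controls and between 0.95 and 1.37 in stressed mice. The alternatives reuse the libraries in which Hcrtr1 was picked, so this describes the processing and is no independent check. Genes passing in MC minus FC numbered 21 with DESeq2, 30 with limma voom and 7 in libraries numbered 1 to 5, against 11, and in MS minus FS 8 and 6 in libraries numbered 1 to 5 and 6 and above, against 14. Leaving out 1 library gave 9 to 15 in each comparison, with 9 in MS minus FS without FS3. The Hcrtr2 difference by library number ranged from -0.44 to -0.32 when 1 library was left out, and passed in 9 of 38 refits (without FC8, MC3, MC10, FS1, FS2, FS3, FS6, FS7 or MS7). Without the libraries that stood apart it was -0.42, and passed. The subsets hold fewer libraries, and for the other changes the cause was not tested. Of the marker correlations 4 and 2 passed within the number sets, against 13, and the correlation of the receptors over all 38 libraries was 0.326 (permutation p = 0.0455). That p-value, too, takes no account of the means removed. The labels do not say whether library numbers pair the libraries. Over 55 same-number pairs the correlation of deviations from group means was -0.188 to 0.541, and 43 were over 0.1. Its median was 0.245, against -0.085 over pairs with other numbers, and 5 of 38 libraries correlated best with their own number. With the means of group and number set taken out, the median over same-number pairs was 0.0014. With the replicate block the Hcrtr1 sex differences were 1.32 ± 0.22 and 1.35 ± 0.23 (SE), and 13 and 14 genes passed. Depth limits Hcrt, at 0 to 16 counts a library, more than the receptors.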
